A study of Mus musculus with 6 samples.

Results

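The mature miRNAs of the miR-137, miR-138, miR-153 and miR-218 hairpins were followed in the brains of mice with and without ADAR2. ADAR2 is an enzyme that converts adenosine to inosine in double-stranded RNA. According to the authors, a second such enzyme, ADAR1, remains active in Adar2-/- mice. Members were all rows of the count tables named miR-137, miR-138, miR-153 or miR-218, whatever the copy or arm, which gave 10 of 1055 mature miRNAs. Of these 10, 4 are guide strands and 6 are star arms, the partner strands of the same hairpins. Small RNA of 19 to 25 nucleotides was sequenced from whole brains of 3 wild-type and 3 Adar2-/- adult female mice of the 129SV strain, aged 5.5 months and taken as siblings from heterozygous crosses. All 6 mice were homozygous for Gria2 R/R, a pre-edited allele of the AMPA receptor subunit gene whose editing otherwise depends on ADAR2. The comparison is therefore between ADAR2 present and absent on a Gria2 R/R background, and unmodified Gria2 was in neither group. Each brain gave 1 library on its own sequencing lane, so that brain and lane cannot be told apart.

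A miRNA hairpin is cut by Drosha and Dicer into a short duplex, and 1 strand of the duplex, the guide, is kept in an Argonaute protein while the star strand is mostly degraded. The guide finds its target mRNAs mainly through the seed, its bases 2 to 8. All 4 guides are known as enriched in neurons. miR-137 acts on neural progenitor differentiation and dendrite growth, and miR-138 limits the size of dendritic spines. miR-153 is known to act on synaptic vesicle proteins, and miR-218 is a prominent miRNA of motor neurons and is also made in other neurons.

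All 10 members were linked by name to RefSeq entries of the mouse (GRCm38.p6 table). The deposited counts hold no sequences, so this link, and which arm each name means, was not checked against reads. The RefSeq sequences are shown because the names alone hide which members share bases. Capitals mark the seed, and the letters run from the 5′ to the 3′ end.
miR-137: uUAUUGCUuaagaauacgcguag
miR-138: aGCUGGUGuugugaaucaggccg
miR-153: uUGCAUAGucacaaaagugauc
miR-218: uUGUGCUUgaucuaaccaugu
miR-137*: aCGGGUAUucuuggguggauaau
miR-153*: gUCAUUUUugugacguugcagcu
miR-138-1*: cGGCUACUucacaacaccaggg
miR-138-2*: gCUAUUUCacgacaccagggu
miR-218-1*: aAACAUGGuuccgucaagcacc
miR-218-2*: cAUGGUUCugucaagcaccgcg

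The 10 seeds differed from one another, so that the 4 guides have no seed in common. Among the 1679 distinct mature names of the RefSeq table, mmu-miR-7002-3p shared the seed of miR-218 and mmu-miR-496b that of miR-218-1*, and neither has a row of that name in the count tables. The seeds of miR-138 and miR-218 hold 0 adenosines, that of miR-137 holds 1 and that of miR-153 holds 2. Adenosine is the base that ADAR2 acts on, but editing itself was not measured here.

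miR-138 and miR-218 are each made from 2 hairpins that carry the same guide, so a guide read does not tell its hairpin and only the star arms do. The 4 hairpins are shown for this reason, with the bases of both mature arms in capitals.
Mir138-1: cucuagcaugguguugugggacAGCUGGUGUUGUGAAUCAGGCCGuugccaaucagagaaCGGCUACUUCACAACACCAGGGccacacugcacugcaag
Mir138-2: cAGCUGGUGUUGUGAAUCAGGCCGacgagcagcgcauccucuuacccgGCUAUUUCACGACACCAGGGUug
Mir218-1: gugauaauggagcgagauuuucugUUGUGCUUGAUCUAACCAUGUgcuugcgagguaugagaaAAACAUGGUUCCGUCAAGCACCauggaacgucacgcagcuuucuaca
Mir218-2: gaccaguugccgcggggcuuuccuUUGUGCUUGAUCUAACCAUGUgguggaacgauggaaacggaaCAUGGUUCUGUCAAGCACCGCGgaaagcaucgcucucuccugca

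Aligned without gaps, miR-138-1* and miR-138-2* were identical at 18 of 20 positions, with the substitutions C7U and A13G. miR-218-1* and miR-218-2* were identical at 18 of 19 positions, with the substitution C12U. Positions are counted from the 5′ end of the -1* arm, whose base stands first. The authors allowed 2 mismatches when they mapped reads, so the split of reads between the star arms of a pair is uncertain to an extent that was not measured.

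On the NCBIM37 mouse genome, the hairpin sequences lay on 6 chromosomes, all on the plus strand. Mir137 was at chr3:118136775-118136847 outside any other annotated gene, 128200 bp from the nearest protein-coding gene, Dpyd. Mir138-1 at chr9:122591994-122592092 and Mir138-2 at chr8:96848211-96848281 also overlapped no other gene. Mir153 at chr12:118489290-118489358 lay in an intron of Ptprn2, which encodes a phosphatase-like protein of dense-core vesicles. Mir218-1 at chr5:48615181-48615290 lay in an intron of Slit2 and Mir218-2 at chr11:35430318-35430427 in an intron of Slit3, both genes of axon guidance ligands and both on the strand of their miRNA.

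The libraries held between 12449633 (wild-type replicate 1) and 23935544 mapped miRNA reads. Abundance is expressed in RPM, the reads of a miRNA per 1000000 mapped in its library. Wilson 95% intervals were computed for each share of reads and cover counting error only. Of 9 lists of cell type markers, all 37 listed miRNAs were in the tables. Among them 0 passed the edgeR test between genotypes, as did 0.0% of all 399 miRNAs tested, so this count does not speak to cell composition. miR-449c of the choroid plexus list was at 0 in at least 1 library and was not among the miRNAs tested. The summed neuron markers miR-124, miR-128 and miR-9 were at 113094 to 166115 RPM in wild-type and 121979 to 125876 RPM in Adar2-/- brains. The sum was thus high in all 6 libraries, but most of it was miR-9. In Adar2-/- replicate 3, miR-124 (25453 RPM) and miR-128 (1319 RPM) were at their highest and miR-9 (99104 RPM) at its lowest. Libraries differed more in the summed retina and pineal markers (miR-182, miR-183 and miR-96). These were at 108156 to 155374 RPM in wild-type and 19159 to 186903 RPM in Adar2-/- brains, with the lowest value in Adar2-/- replicate 3. The summed hindbrain and spinal cord markers also differed, at 492 to 1355 RPM in wild-type and 275 to 2077 RPM in Adar2-/- brains. The summed pituitary and endocrine markers were highest in wild-type replicate 1, at 7459 RPM against 1289 to 4714 RPM in the other libraries. The genotype labels were not checked here, and mRNA of Adar2 was not measured in these libraries.

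The guides kept the order miR-138, miR-153, miR-218 and miR-137 in 6 of 6 libraries. The log2 ratio of reads within a library was 0.45 to 1.61 for miR-138 over miR-153, 0.59 to 1.20 for miR-153 over miR-218, and 1.43 to 3.18 for miR-218 over miR-137. Across libraries the RPM ranges of miR-138 and miR-153 overlapped, while those of miR-153 and miR-218 and those of miR-218 and miR-137 did not. The mature strands of the members are 21 to 23 bases long in RefSeq, so reads were not scaled by length. The lengths of the reads and ligation preferences between sequences were not measured. Together the 4 guides took 1.47%, 3.63% and 2.54% of all reads in wild-type replicates 1 to 3, against 1.99%, 2.85% and 3.16% in Adar2-/- replicates 1 to 3. The mean share was 2.55% ± 1.08 against 2.67% ± 0.607 (SD, n = 3 each), a difference within the spread between brains (two-sided exact permutation test, p = 0.9). The smallest p that 3 libraries against 3 allow is 0.1.

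**Figure D1:**
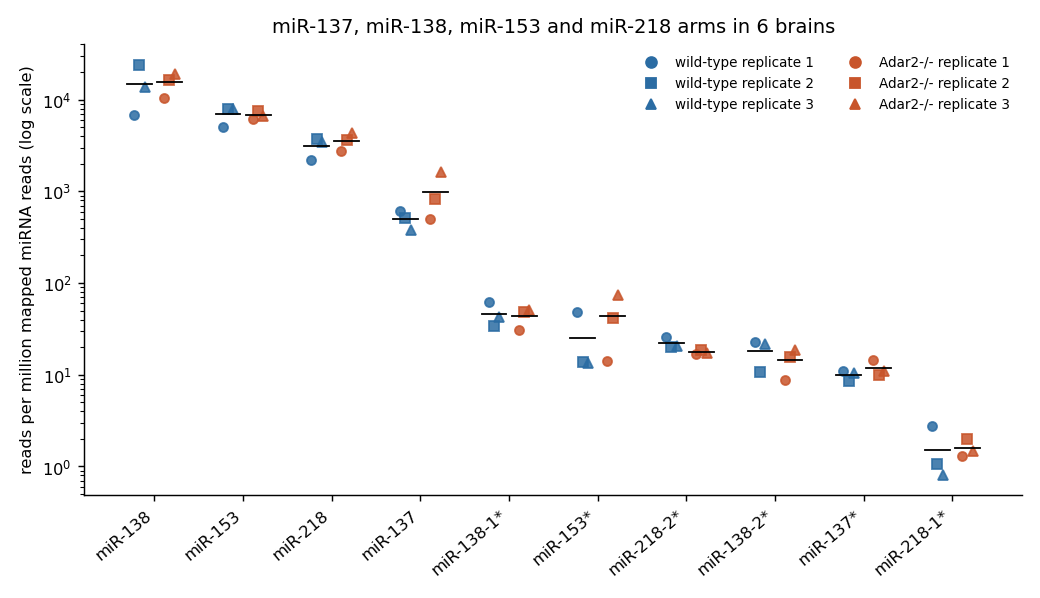
Abundance of the 10 members in each library, in reads per 1000000 mapped miRNA reads on a log axis; blue marks are wild-type, orange marks Adar2-/- brains, the mark shape is the replicate number and the bar is the mean of 3 libraries. The 4 guides lie above all star arms, miR-218-1* lies lowest, and the genotypes overlap for every member except miR-218-2*.

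miR-138, the most abundant guide, was at 6872, 24179 and 13701 RPM in wild-type replicates 1 to 3 and at 10506, 16573 and 19094 RPM in Adar2-/- replicates 1 to 3. The lowest and the highest of the 6 values were both wild-type, and the Adar2-/- values lay between them. Means were 14917 ± 8717 and 15391 ± 4414 RPM (SD, n = 3 each), a ratio of 1.03. In edgeR's quasi-likelihood test the log2 fold change, Adar2-/- over wild-type, was 0.05 with a standard error of 0.457 and a 95% interval from -0.97 to 1.06 (adjusted p = 0.989). Its sign turned in other settings, with a value of -0.04 under TMM scaling factors and -0.30 without wild-type replicate 1.

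miR-153 was at 5035, 7927 and 7879 RPM in wild-type replicates 1 to 3 and at 6166, 7456 and 6562 RPM in Adar2-/- replicates 1 to 3. The Adar2-/- values all lay inside the wild-type range, of which wild-type replicate 1 was the low end. Means were 6947 ± 1656 and 6728 ± 661 RPM (SD, n = 3 each), with a log2 fold change of -0.05, a standard error of 0.316 and a 95% interval from -0.75 to 0.66 (edgeR, adjusted p = 0.989). Over the 6 libraries its coefficient of variation, 16.6%, was the lowest of the 4 guides.

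miR-218 was at 2224, 3679 and 3420 RPM in wild-type replicates 1 to 3 and at 2737, 3603 and 4357 RPM in Adar2-/- replicates 1 to 3. The highest value was Adar2-/- replicate 3 and the lowest wild-type replicate 1, and the other 4 libraries overlapped between the genotypes. The log2 fold change was 0.20 with a standard error of 0.338 and a 95% interval from -0.55 to 0.95 (edgeR, adjusted p = 0.989).

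miR-137, the least abundant guide, was at 612, 510.5 and 377 RPM in wild-type replicates 1 to 3 and at 500.1, 836 and 1621 RPM in Adar2-/- replicates 1 to 3. Adar2-/- replicates 2 and 3 were above every wild-type library, while Adar2-/- replicate 1 was below wild-type replicates 1 and 2, so that the genotypes overlapped. Means were 499.8 ± 118 and 986 ± 575 RPM (SD, n = 3 each), a ratio of 1.97. Within replicate numbers 1 to 3 the ratios were 0.817, 1.64 and 4.30. The log2 fold change was 0.98 with a standard error of 0.446 and a 95% interval from -0.01 to 1.97, the farthest from 0 among the members, and it did not pass the threshold (edgeR, p = 0.0526, adjusted p = 0.988; two-sided exact permutation test of log2 RPM, p = 0.3). Without Adar2-/- replicate 3 the log2 fold change was 0.42, and without both libraries of replicate 3 it was 0.25. In Adar2-/- replicate 3 the retina and pineal markers were at their lowest. With miR-182, miR-183 and miR-375 left out of the totals, the log2 fold change of miR-137 was 0.89. Beyond the totals, the part of this marker difference in the miR-137 value was not tested. In whole tissue, fewer or more cells of a type and less or more RNA per cell cannot be told apart.

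Star arms were far rarer than their guides. miR-138-1* ranged from 31.2 to 61.5 RPM, miR-218-2* from 16.9 to 25.7 RPM and miR-137* from 8.56 to 14.4 RPM, 3 ranges that did not overlap. miR-153* (13.4 to 74.4 RPM) and miR-138-2* (8.74 to 22.7 RPM) overlapped their neighbours in this order. miR-218-1* was lowest with 0.809 to 2.73 RPM, or 19 to 47 reads, and was the 1 member below the minimum of 100 reads in every library that was set for the test.

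miR-153* was at 48.0, 13.9 and 13.4 RPM in wild-type replicates 1 to 3 and at 14.1, 42.1 and 74.4 RPM in Adar2-/- replicates 1 to 3. Each genotype thus held libraries at 13.4 to 14.1 RPM and libraries at 42.1 to 74.4 RPM, a gap far wider than the counting error. Means were 25.1 ± 19.8 and 43.5 ± 30.2 RPM (SD, n = 3 each), with a log2 fold change of 0.80 and a standard error of 0.649 (edgeR, adjusted p = 0.988). Its coefficient of variation over the 6 libraries, 72.8%, was the highest of the 10 members. Without both libraries of replicate 1 the log2 fold change was 2.09, and miR-153* was then the 1 member past the threshold (edgeR, adjusted p = 0.0375), beside 4.51% of the 399 miRNAs tested called higher in that setting. Without both libraries of replicate 3 it was -0.14.

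miR-218-2* was at 25.7, 19.9 and 20.6 RPM in wild-type replicates 1 to 3 and at 16.9, 18.5 and 17.3 RPM in Adar2-/- replicates 1 to 3. Every Adar2-/- library was below every wild-type library. The genotypes did not overlap, in either direction, for 1 of the 9 tested members and for 5.76% of all 399 miRNAs tested, and the Adar2-/- libraries were the lower ones for 3.01% of all. The nearest pair, wild-type replicate 2 and Adar2-/- replicate 2, had counting intervals of 18.1 to 21.8 and 16.8 to 20.3 RPM, which overlap. The ratio of the means, 22.1 ± 3.17 and 17.5 ± 0.835 RPM (SD, n = 3 each), was 0.795, and the log2 fold change was -0.33 with a standard error of 0.302 (edgeR, adjusted p = 0.988; two-sided exact permutation test of log2 RPM, p = 0.1, the smallest possible).

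miR-137* was at 10.9, 8.56 and 10.4 RPM in wild-type replicates 1 to 3 and at 14.4, 10.0 and 10.9 RPM in Adar2-/- replicates 1 to 3. It was higher in Adar2-/- brains within each replicate number, with ratios of 1.32, 1.17 and 1.04, although the genotypes overlapped and the log2 fold change was 0.24 with a standard error of 0.311 (edgeR, adjusted p = 0.988). The guide of the same hairpin, miR-137, had its highest value in Adar2-/- replicate 3, where miR-137* was near its middle.

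miR-138-1* was at 61.5, 33.8 and 43.2 RPM in wild-type replicates 1 to 3 and at 31.2, 48.8 and 51.4 RPM in Adar2-/- replicates 1 to 3. miR-138-2* was at 22.7, 10.8 and 21.7 RPM in wild-type and at 8.74, 15.5 and 18.8 RPM in Adar2-/- replicates 1 to 3. Both were highest in wild-type replicate 1, the library in which their guide was lowest, and both overlapped between the genotypes, with log2 fold changes of -0.08 and -0.36 and standard errors of 0.363 and 0.409 (edgeR, adjusted p = 0.989 and 0.988). miR-218-1* was at 2.73, 1.05 and 0.809 RPM in wild-type and at 1.29, 1.99 and 1.46 RPM in Adar2-/- replicates 1 to 3, with a log2 fold change of 0.10 when the minimum was lowered to 10 reads (edgeR, adjusted p = 0.984).

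Of the 9 members tested, 0 passed the adjusted threshold of 0.05 in edgeR, as did 0.0% of all 399 miRNAs, and 0 had an unadjusted p under 0.05, against 3.26% of all. DESeq2 called 0 members as well, against 0.251% of all, and there 1 of the 9, miR-137, had an unadjusted p under 0.05, against 10.0% of all. Direction split into 5 members higher and 4 lower in Adar2-/- brains, with a median log2 fold change of 0.05 over the members and 0.0023 over all miRNAs tested. Within all 3 replicate numbers, 2 of the 9 moved the same way, miR-137* upward and miR-218-2* downward, against 16.0% of all miRNAs tested. When a ratio of at least 1.3-fold was also required, 0 of the 9 remained, against 9.77% of all.

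**Figure D2:**
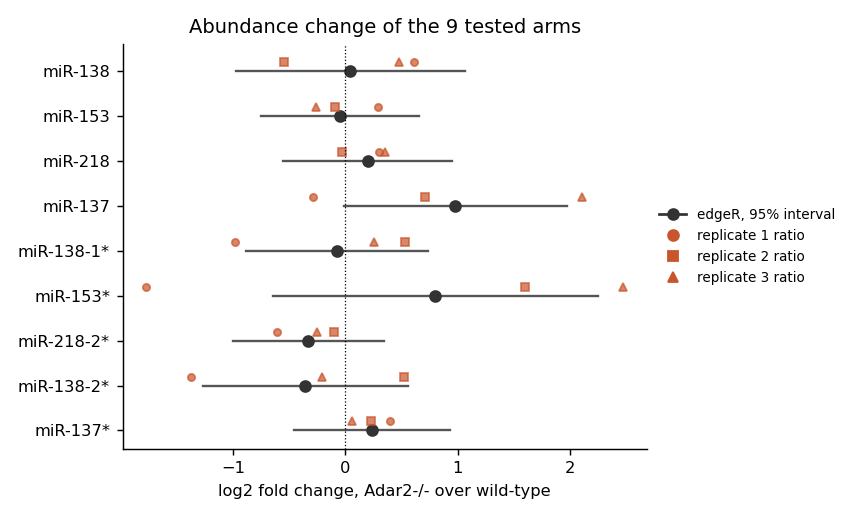
Log2 fold change of the 9 tested members, Adar2-/- over wild-type, from edgeR with its 95% interval (dark points and lines), and the log2 RPM ratio of each replicate number (orange marks above each line). Every interval includes 0, and the replicate ratios lie on both sides of 0 for all members but miR-218-2* and miR-137*.

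A ratio of 2 strands within a library needs no library size, so the members were also compared with each other. Between guides, 6 pairs were formed. The largest mean difference in log2 ratio between the genotypes was -0.86, for miR-153 over miR-137. Its values were 3.04, 3.96 and 4.39 in wild-type replicates 1 to 3, against 3.62, 3.16 and 2.02 in Adar2-/- replicates 1 to 3, which overlap (two-sided exact permutation test, p = 0.3, adjusted over the 6 pairs 0.6). The ratio of miR-153 to miR-218 was the steadiest, at 1.18, 1.11 and 1.20 in wild-type and 1.17, 1.05 and 0.59 in Adar2-/- replicates 1 to 3, where only Adar2-/- replicate 3 stood away from the rest (two-sided exact permutation test, p = 0.2, adjusted 0.6). The p-values of the other 4 pairs were 0.3 to 0.9, and the genotypes overlapped in all 6.

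The star arm was then set against the guide of its own hairpin, or of its hairpin pair. For miR-138-1* there were 8.95, 1.40 and 3.15 star reads for every 1000 guide reads in wild-type replicates 1 to 3, against 2.97, 2.94 and 2.69 in Adar2-/- replicates 1 to 3. For miR-138-2* there were 3.30, 0.447 and 1.58 in wild-type and 0.832, 0.934 and 0.982 in Adar2-/- replicates 1 to 3. The 3 Adar2-/- brains thus lay close together in both, with standard deviations of 0.08 and 0.12 on the log2 scale, while the wild-type brains lay on either side of them with standard deviations of 1.34 and 1.46. This contrast in spread was not tested, and without wild-type replicate 1 the mean difference of miR-138-1* over its guide turned from -0.25 to 0.45.

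miR-153* gave 9.52, 1.75 and 1.70 star reads for every 1000 guide reads in wild-type replicates 1 to 3, against 2.28, 5.65 and 11.3 in Adar2-/- replicates 1 to 3. As the guide varied little, these values followed the star arm itself. miR-218-2* gave 11.6, 5.41 and 6.03 in wild-type and 6.17, 5.13 and 3.96 in Adar2-/- replicates 1 to 3, and so overlapped between the genotypes although its RPM did not. miR-137* gave 17.9, 16.8 and 27.7 in wild-type and 28.9, 11.97 and 6.70 in Adar2-/- replicates 1 to 3, the widest relative range in Adar2-/- brains after miR-153*.

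Wild-type replicate 1, the library with the fewest reads, had the highest star to guide ratio of the 6 libraries for miR-138-1*, miR-138-2*, miR-218-1* and miR-218-2*, and the second highest for miR-153*. The part of depth and of what set that library's high miR-375 in these ratios was not tested. Mean differences in log2 star to guide ratio between the genotypes ran from -0.61 for miR-137* to 0.79 for miR-153*. None of the 6 passed (two-sided exact permutation tests, p = 0.3 to 1.0, adjusted over the 6 star arms 0.84 to 1.0).

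**Figure D3:**
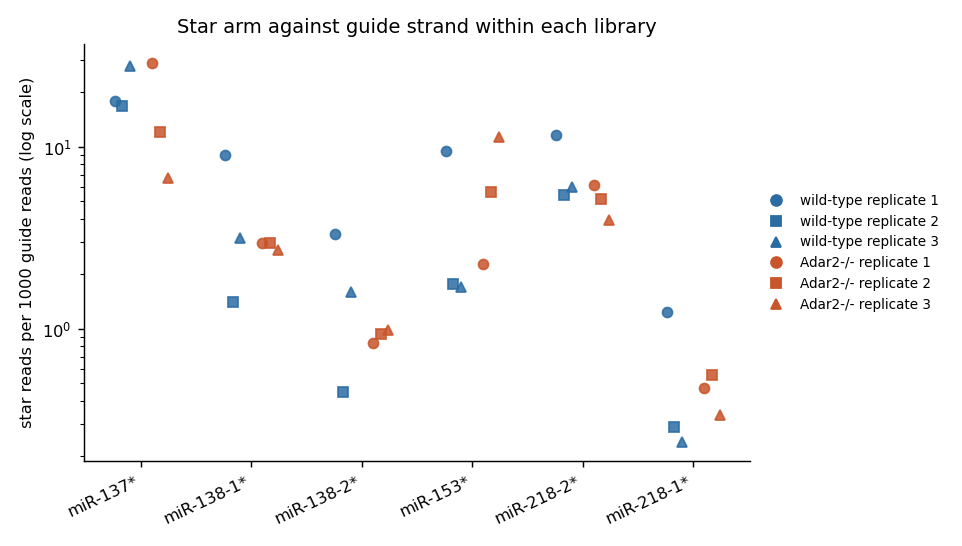
Star reads per 1000 guide reads within each library, on a log axis, for the 6 star arms; colours are the genotypes and mark shapes the replicate numbers. Wild-type replicate 1 is highest for both miR-138 and both miR-218 star arms, and the Adar2-/- libraries lie together at 2.69 to 2.97 for miR-138-1*.

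For miR-138 and miR-218 only the star arms tell the hairpins apart. miR-138-1* made up 73.1%, 75.8% and 66.6% of the reads on both miR-138 star arms in wild-type replicates 1 to 3, against 78.1%, 75.9% and 73.3% in Adar2-/- replicates 1 to 3. The star of the chromosome 9 hairpin was thus the more abundant in all 6 libraries, and the mean difference between the genotypes in log2 ratio was 0.29 (two-sided exact permutation test, p = 0.2, adjusted over the 2 star pairs 0.3). miR-218-1*, from the Slit2 intron, made up 9.60%, 5.03% and 3.78% of both miR-218 star arms in wild-type and 7.08%, 9.73% and 7.81% in Adar2-/- replicates 1 to 3, so that the star from the Slit3 intron was the more abundant in every library. The mean difference in log2 ratio was 0.55 (two-sided exact permutation test, p = 0.3, adjusted 0.3). The star arms give the share of each hairpin among star reads only, since star strands can differ in stability.

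Across the 6 libraries, the miRNAs whose log2(RPM + 1) was most like that of each guide were named from the other 398 tested, as a description. These correlations share the library totals and the differences in depth. For miR-138 they were miR-744 (Pearson r = 0.999), miR-27a (r = 0.977) and miR-127 (r = 0.959). miR-744 was at 121, 321 and 211.5 RPM in wild-type and at 169, 249 and 268 RPM in Adar2-/- replicates 1 to 3, which is the order of the 6 libraries for miR-138.

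For miR-153 they were miR-30a (r = 0.976), miR-668 (r = 0.970) and miR-340-3p (r = 0.967). For miR-218 they were miR-221 (r = 0.986), miR-338-3p (r = 0.973), which is known from oligodendrocytes, and miR-101b (r = 0.970). All 6 were lowest in wild-type replicate 1, as were miR-153 and miR-218 themselves.

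For miR-137 they were miR-29c (r = 0.982), miR-342-3p (r = 0.975) and miR-411* (r = 0.975). miR-29c was at 1814, 1325 and 1308 RPM in wild-type and at 1480, 2855 and 5465 RPM in Adar2-/- replicates 1 to 3, highest in the same library as miR-137. Their log2 fold changes, 1.14, 0.78 and 0.72, belong to the same 6 libraries and are no further evidence on miR-137. Among the members themselves, miR-138 went most with miR-218 (r = 0.915), and miR-137 with miR-153* (r = 0.875). Star and guide of the same hairpin did not go together, with r = -0.04 for miR-137 and -0.46 for miR-153. Nor did miR-138 with miR-138-1* (r = -0.37) or miR-138-2* (r = -0.29), or miR-218 with miR-218-2* (r = -0.63). The miR-138 star arms went with each other (r = 0.88), although the split of reads between them is uncertain.

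**Figure D4:**
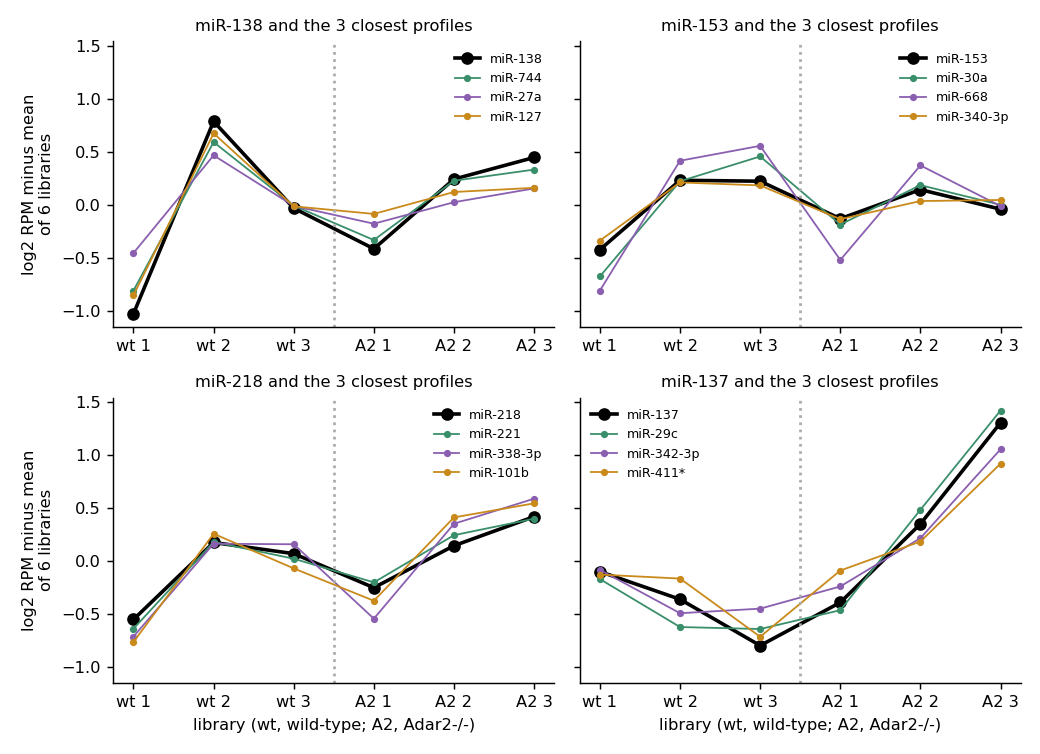
Log2 RPM of each guide (black) and of the 3 miRNAs with the most similar profile (colours), each minus its mean over the 6 libraries; wt marks wild-type and A2 marks Adar2-/- replicates 1 to 3. The groups around miR-138, miR-153 and miR-218 are lowest in wild-type replicate 1, and the group around miR-137 is highest in Adar2-/- replicate 3.

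Other miRNAs enriched in neurons, all rows of miR-9, miR-124, miR-128, miR-129, miR-132, miR-134, miR-135a, miR-135b and miR-212, gave 21 rows, of which 18 were tested. Of these 18, 0 passed the threshold in edgeR, as did 0.0% of all 399 miRNAs tested. An unadjusted p under 0.05 in edgeR was found for 1 of the 18, against 3.26% of all. DESeq2 called 0 of them and gave 4 at an unadjusted p under 0.05, where 10.0% of all miRNAs tested were. In Adar2-/- brains 6 were higher and 12 lower, with a median log2 fold change of -0.18, against 0.05 for the members and 0.0023 for all miRNAs tested. The largest change was that of miR-9*, the partner strand of the neural miR-9, at 28362, 8512 and 10067 RPM in wild-type and 6692, 6359 and 8916 RPM in Adar2-/- replicates 1 to 3. Wild-type replicate 1 was far above the other 5 libraries, and the log2 fold change was -1.10 with a standard error of 0.469 (edgeR, adjusted p = 0.988).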

How the data were processed

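Small RNA reads of 6 whole brains were processed by the authors, who removed adaptors with Cutadapt, mapped to the mature miRNAs of miRBase with NextGenMap allowing up to 2 mismatches, kept sense-strand hits only and weighted reads that fitted several miRNAs equally well. The authors deposited whole-number read counts per mature miRNA, without normalization, in 3 tables of 1 wild-type and 1 Adar2-/- library each, and the labels name the build mm9. Columns were assigned by genotype and table number, and 12 blank lines were dropped. The members and all lists were chosen with earlier results of these data known.

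Differential abundance was computed from the counts by the quasi-likelihood test of edgeR 4.0.16 (R 4.3.3) for 399 miRNAs, those reaching 100 reads in all 6 libraries. Library size was the sum of mapped miRNA reads, without scaling factor or block, and Benjamini-Hochberg adjusted p-values had a threshold of 0.05. The procedure was also run on simulated counts, whose recovery of known changes is not reported here. For ratios and shares, two-sided exact permutation tests over libraries were used. Wilson intervals were computed with scipy 1.17.1. All members were named, with the 3 miRNAs nearest in profile to each guide (Pearson correlation of log2(RPM + 1)) and the neuron-enriched miRNA with the largest change. Hairpin sequences were placed on NCBIM37 by exact match. Alternatives were TMM factors, DESeq2 1.42.0, totals without the 5 most abundant miRNAs, no minimum or one of 10 reads, the replicate number as a block, each library or replicate number left out, medians, geometric means, a 1.5-fold limit and 0.5 added reads. Totals without miR-182, miR-183 and miR-375 and the block with TMM factors were added after seeing the data. Replicates are separate brains. Editing levels and mRNA arrays were not analysed here.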

Additional observations from a re-analysis of the deposited data

How the results depend on the processing

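Of 386 values recomputed under other settings, 335 kept their direction and their side of the threshold and 42 reversed. For ratios and shares only the direction could change, because their permutation tests cannot give a p under 0.1. Counts have no direction and were compared by value. The 335 is thus no measure of how firm the tests are. The members past the edgeR threshold numbered 0 in each setting except without replicate 1, where miR-153* passed (log2 fold change 2.09), so leaving out libraries gave 0 to 1. Without replicate 1, 18 of all miRNAs passed (0 to 18 over the settings that left out libraries), and so did 1 of the other neuron-enriched miRNAs, miR-128 (0 to 1). DESeq2 called 1 of all miRNAs, miR-497*, named after its value was seen. The 1.3-fold rule with the same direction took 1 of the 9 members under TMM factors (miR-137; 15.3% of all miRNAs tested), 1 with totals without the 5 most abundant miRNAs (miR-218-2*; 13.0% of all), and 0 to 3 with a replicate number left out. These were 3 without replicate 1 (miR-137, miR-138-1* and miR-153*; 44.1% of all), 3 without replicate 2 (miR-138, miR-138-2* and miR-218-2*; 32.8% of all) and 0 without replicate 3 (11.5% of all). The cause of these changes was not tested, except that leaving out libraries leaves fewer samples.

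The log2 fold change of miR-138 reversed to -0.044 under TMM factors, -0.065 without the 5 most abundant miRNAs in the totals, -0.033 without miR-182, miR-183 and miR-375 and -0.10 in DESeq2. With libraries left out, log2 fold changes ran from -0.30 to 0.58 for miR-138, -0.34 to 0.38 for miR-138-1*, -0.69 to 0.075 for miR-138-2*, -0.23 to 0.072 for miR-153 and -0.14 to 2.09 for miR-153*. Those of miR-137 (0.25 to 1.47), miR-137* (0.07 to 0.34), miR-218 (0.0066 to 0.36) and miR-218-2* (-0.44 to -0.18) kept their sign.

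With libraries left out, differences in log2 star to guide ratio ran from -1.27 to 0.10 for miR-137*, -0.91 to 0.45 for miR-138-1*, -1.34 to 0.19 for miR-138-2*, -0.19 to 2.21 for miR-153* and -0.44 to 0.77 for miR-218-1*. Those of miR-138 over miR-153 ran from -0.068 to 0.53 and of miR-138 over miR-218 from -0.27 to 0.28, the latter 0.13 with medians. The guide share differed by -0.417 to 0.661 percentage points, and by -0.0965 without the 5 most abundant miRNAs.

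Deviations of libraries with the same replicate number correlated at 0.00102, -0.0784 and -0.0116, so no pairing by number was seen in these values. With so few libraries, such correlations cannot exclude a pairing of the brains or lanes. With the replicate block 0 members passed, and 0 of all miRNAs. Depth limited miR-218-1*, with 19 to 47 reads per library.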
